A study of Mus musculus with 34 samples.

Results

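H3K4me3 in microglia of the mouse hippocampus was compared between control animals (Ctrl) and animals labelled FGR, in a series on the effect of growth restriction in the uterus, using the 8 H3K4me3 peak lists among its 34 samples. Each group held 4 libraries, all replicates the labels assign to it, and all animals of both groups carried the genotype Tmem119-tdTomato+/-, a reporter that marks microglia by the Tmem119 locus. The age given is 3 weeks after birth for replicates 1 to 3 of each group, and none is given for replicate 4. Neither the sex of the animals, the way growth was restricted, nor whether replicates were separate animals or pools is given in the sources used here, so p-values measure the spread between these libraries, which may be technical. The assay was ULI-NChIP-seq, an immunoprecipitation of native, unfixed chromatin for small numbers of cells. Every list was shortened to its 16553 strongest peaks, the length of the shortest list, so that gene positions within a list could be compared without the difference in list length.

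H3K4me3 is a methyl mark on the tail of histone H3 that marks the starts of active genes and of genes held ready for activity. It is written by complexes built around the SETD1 and KMT2 enzymes and removed by KDM5 and KDM2 demethylases, and unusually broad domains of the mark are known at genes that define a cell type. Microglia are the resident macrophages of the brain. Their identity is known to depend on Csf1r and TGF-beta signalling and on transcription factors such as Spi1 (PU.1), Sall1 and Mef2c, and P2ry12, Tmem119 and Cx3cr1 are their usual surface markers.

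The libraries differed before any single gene was looked at. Ctrl lists counted 16553 to 18347 peaks on the main chromosomes and FGR lists 43096 to 48970, so that 90.2% to 100% of a Ctrl list but 33.8% to 38.4% of an FGR list was kept. Kept peaks went down to a −log10 p of 3.69 to 5.54 in the Ctrl lists and of 30.2 to 36.7 in the FGR lists, and the median fold enrichment of kept peaks, the authors' value, was 4.26 to 4.43 and 22.6 to 24. In Ctrl the smallest peak of a list spanned 275 to 280 bp, against 148 to 150 bp for FGR. Across genes, rank percentiles of pairs of Ctrl libraries correlated with a mean Pearson r of 0.5, pairs of FGR libraries with 0.864, and Ctrl with FGR libraries with 0.389. FGR H3K4me3 libraries were nearer to Ctrl H3K9ac (mean r of 0.494) than to Ctrl H3K4me3, whereas FGR H3K9ac libraries reached 0.284 with Ctrl H3K4me3 and 0.287 with FGR H3K4me3. These correlations are descriptions across genes that share libraries and base composition. Their part in the results below was not tested, and group and library quality cannot be told apart in this design.

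The cell type given by the labels was checked against marker genes. Of 34 homeostatic microglia genes, 30 had a kept peak within 1 kb of the gene start in at least 1 library. The same held for 12269 of all 21888 genes placed and for 30 of 30 lysosomal genes, so a high share is not particular to microglial genes. The share was 1 of 22 for neurons, 6 of 14 for astrocytes, 4 of 15 for the oligodendrocyte lineage, 5 of 16 for endothelial and mural cells, 3 of 15 for border-associated macrophages, and 3 of 18 for lymphocytes and neutrophils. Of 1459 olfactory and vomeronasal receptor genes, 2 had one. A promoter can carry H3K4me3 in a cell that does not transcribe the gene, so a peak is no measure of expression.

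Rank and width are properties of gene starts, and 4 of those starts are shown here because the results turn on them. Cx3cr1 was both higher in rank and wider in FGR, Qk had the largest gain in width, Zfp984 had the largest gain in rank, and Castor1 kept a peak in every Ctrl library and in none of FGR. Each line gives the 250 bases before the RefSeq start (GRCm38.p6, the assembly of mm10), 5′ to 3′ on the gene's strand, with CG dinucleotides in capitals. The stretches lie at chr9:120068297-120068546 on the minus strand (Cx3cr1), chr17:10319362-10319611 on the minus strand (Qk), chr4:147809789-147810038 on the minus strand (Zfp984) and chr11:4217975-4218224 on the plus strand (Castor1).
Cx3cr1: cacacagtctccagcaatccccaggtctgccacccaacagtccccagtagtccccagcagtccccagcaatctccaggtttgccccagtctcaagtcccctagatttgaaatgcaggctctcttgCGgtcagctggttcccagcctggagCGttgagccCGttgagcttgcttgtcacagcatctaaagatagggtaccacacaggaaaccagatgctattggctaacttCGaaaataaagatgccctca
Qk: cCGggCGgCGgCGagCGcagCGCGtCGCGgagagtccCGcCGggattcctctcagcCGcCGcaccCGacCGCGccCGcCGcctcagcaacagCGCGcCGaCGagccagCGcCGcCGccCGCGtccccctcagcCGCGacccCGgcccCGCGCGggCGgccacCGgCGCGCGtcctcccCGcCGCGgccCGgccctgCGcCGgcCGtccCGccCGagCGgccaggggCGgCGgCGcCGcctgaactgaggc
Zfp984: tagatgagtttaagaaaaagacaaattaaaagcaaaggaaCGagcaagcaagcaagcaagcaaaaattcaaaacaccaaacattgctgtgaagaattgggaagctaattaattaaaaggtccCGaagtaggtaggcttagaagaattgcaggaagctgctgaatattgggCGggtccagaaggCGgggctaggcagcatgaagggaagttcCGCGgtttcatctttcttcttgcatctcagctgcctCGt
Castor1: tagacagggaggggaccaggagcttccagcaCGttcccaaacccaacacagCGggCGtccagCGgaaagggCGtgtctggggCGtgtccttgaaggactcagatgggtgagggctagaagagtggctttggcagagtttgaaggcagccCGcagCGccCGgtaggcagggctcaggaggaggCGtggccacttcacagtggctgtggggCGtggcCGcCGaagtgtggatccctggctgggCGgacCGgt
The Cx3cr1 start held 4 CG dinucleotides at a GC content of 53.6%, and Qk held 52 at 84.8%. Zfp984 held 7 at 43.6%, and Castor1 held 15 at 65.2%. Neither TATAAA nor GAGGAAGT, a core of the site bound by PU.1, occurred on either strand of these 4 stretches. Over all 27025 promoters in the RefSeq table, read from 250 bases before to 50 after the start, 15.7% held the first and 3.69% the second.

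At equal list length, H3K4me3 peaks of FGR were wider and covered more of the genome. Kept peaks covered 11.42, 10.62, 10.59 and 10.72 Mb in Ctrl and 23.6, 25.19, 24.36 and 23.75 Mb in FGR, and the groups did not overlap. The mean was 10.84 ± 0.393 Mb (SD, n = 4) against 24.23 ± 0.723 Mb, 2.24 times as much. Median peak width was 554.2 ± 22.5 bp in Ctrl and 1268 ± 36.9 bp in FGR. Peaks of 4 kb or more numbered 2, 0, 2 and 3 in Ctrl and 337, 448, 406 and 372 in FGR. Long H3K4me3 domains, as called peaks, were thus almost confined to the FGR lists.

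Gene starts took a similar share of both groups' lists. Kept peaks lay within 1 kb of a gene start in 70.7% ± 0.451 of cases in Ctrl and 72.57% ± 0.433 in FGR (SD, n = 4 each), and 10330 ± 90.6 and 11300 ± 64.6 genes had one. At 5356 gene starts with a single annotated position and a peak in every library, the median peak reached 356 to 393 bp upstream and 618 to 660 bp downstream in Ctrl. In FGR it reached 666 to 699 bp upstream and 988 to 1029 bp downstream, and the longer side was downstream in every library of both groups. Covered genome, median width, the number of peaks of 4 kb or more, the share at gene starts and the number of genes each differed between groups with an exact two-sided permutation p of 0.0286, the smallest that 4 against 4 libraries allow, and an adjusted p of 0.0286 over the 6 library values tested.

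**Figure D1:**
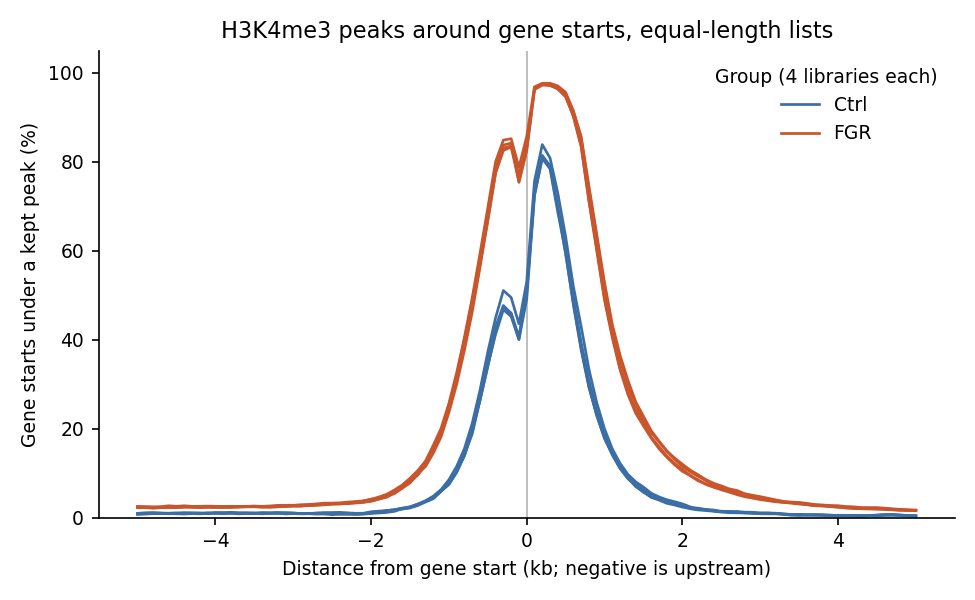
Share of gene starts under a kept H3K4me3 peak (%, vertical axis) against distance from the start (kb, horizontal axis, upstream negative), with 1 line per library and 4 libraries per group. The FGR lines lie above the Ctrl lines on both sides of the start, and both groups show a dip just upstream of it and a longer flank downstream.

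The first gene measure was rank. Each gene was given the percentile of its best kept peak within 1 kb of its start, where 100 is the strongest peak of the library and 0 means that no kept peak lay there. Because nearly whole Ctrl lists were kept, 0 in Ctrl mostly means that no peak was called, while 0 in FGR means only that no peak was among the strongest 16553. Of 11369 genes with a kept peak in at least 4 of the 8 libraries, 1336 ranked higher in FGR (11.8%) and 749 ranked lower (6.59%) by limma at an adjusted p under 0.05. The median difference over all of them was 4.52 percentile points, and the SD between replicates of a gene was 19.1 points in Ctrl and 8.07 in FGR at the median. A gene with a kept peak in 1 group alone enters this test only through the group where it is high, so its direction is set by that rule. This holds for 165 of the 1336 higher and 30 of the 749 lower genes, and for such genes the percentiles are given below as a description, without a p. A group with a kept peak in all 4 libraries likewise meets the rule by itself where the other has 1 to 3. That was so for 2453 genes with all 4 in FGR and 126 with all 4 in Ctrl. Calls at named genes of that kind are also given without a p. Among genes with a kept peak in all 8 libraries, 699 of 8264 were higher and 711 lower. The counts depended on the number of FGR libraries. They fell to 474 and 356 without FGR replicate 1, 367 and 270 without replicate 2, 346 and 235 without replicate 3, and 336 and 235 without replicate 4. Ranking genes against each other rather than peaks gave 1210 higher and 1257 lower, which moved the share of higher calls from 64.1% to 49%.

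The largest differences toward FGR were at genes with a low or no kept peak in Ctrl. The 12 at the top, among genes whose groups did not overlap, were 85.3 to 99.1 percentile points higher in FGR and included Zfp984, Psrc1, Yars2, Stau2, Zfp317, Zfp418, Lrch1, BC024063, Cyb561d1, Dhdds and Timm44. Zfp984, a zinc finger gene (chr4:147753974-147812229), stood at 0, 0, 0 and 0 in Ctrl and 97.7, 99.3, 99.8 and 99.8 in FGR. The FGR peak was thus near the top of each list, where no Ctrl list had a kept peak. Dhdds, which encodes a subunit of the enzyme that makes the dolichol carrier of protein glycosylation (chr4:133969028-134000957), had percentiles of 2.9, 0, 22.5 and 10.5 in Ctrl and 89, 99.6, 99.1 and 93.8 in FGR. Timm44, part of the mitochondrial protein import motor, stood at 2.8, 0, 34.3 and 0 and 98.8, 90.8, 95 and 93.5. In each of these genes the Ctrl libraries showed a weak peak or none, while the FGR peaks lay in the upper part of the list.

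The largest falls in rank were of a different kind, since most of these genes kept a peak in FGR but low in the list. They are falls in position within a list. The strongest peak of each Ctrl list had a −log10 p of 31.6 to 42.7, and the weakest kept FGR peaks one of 30.2 to 36.7. At Cyth2 and Itga8 the mean width was 326.5 and 424 bp in Ctrl and 905.2 and 639 bp in FGR. The 12 at this end were lower in FGR, by differences of -77.6 to -68.1 percentile points, and included Cyth2, Castor1, Itga8, P2ry2, Rplp0, Dlx1, Adm, Borcs7, Nup153, Stk40 and Hoxb7. Castor1, the arginine sensor of the mTORC1 pathway (chr11:4218166-4222409), stood at 64.2, 83.7, 83.2 and 76.4 in Ctrl and 0, 0, 0 and 0 in FGR. It was 1 of 45 genes with a kept peak in all 4 Ctrl libraries and none in FGR, against 230 of the opposite kind. Itga8, an integrin alpha chain (chr2:12106632-12301985), was among the strongest Ctrl peaks at 97.5, 97.9, 99.7 and 100 and lay at 19.1, 22.7, 24.9 and 24.7 in FGR (adjusted p = 0.00112, from limma as for every gene below). Cyth2, which activates ARF GTPases, gave 83.5, 94.1, 69.7 and 85.5 in Ctrl and 1.9, 11.2, 3.4 and 5.9 in FGR (adjusted p = 0.00156). P2ry2, a receptor for extracellular ATP and UTP, gave 74.6, 79.4, 99 and 98 and 20.3, 17.5, 7.3 and 13.8 (adjusted p = 0.00236). These Ctrl values lay in the upper part of every list. At Itga8, Cyth2 and P2ry2, which had a kept peak in every library, no library of one group reached the range of the other.

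**Figure D2:**
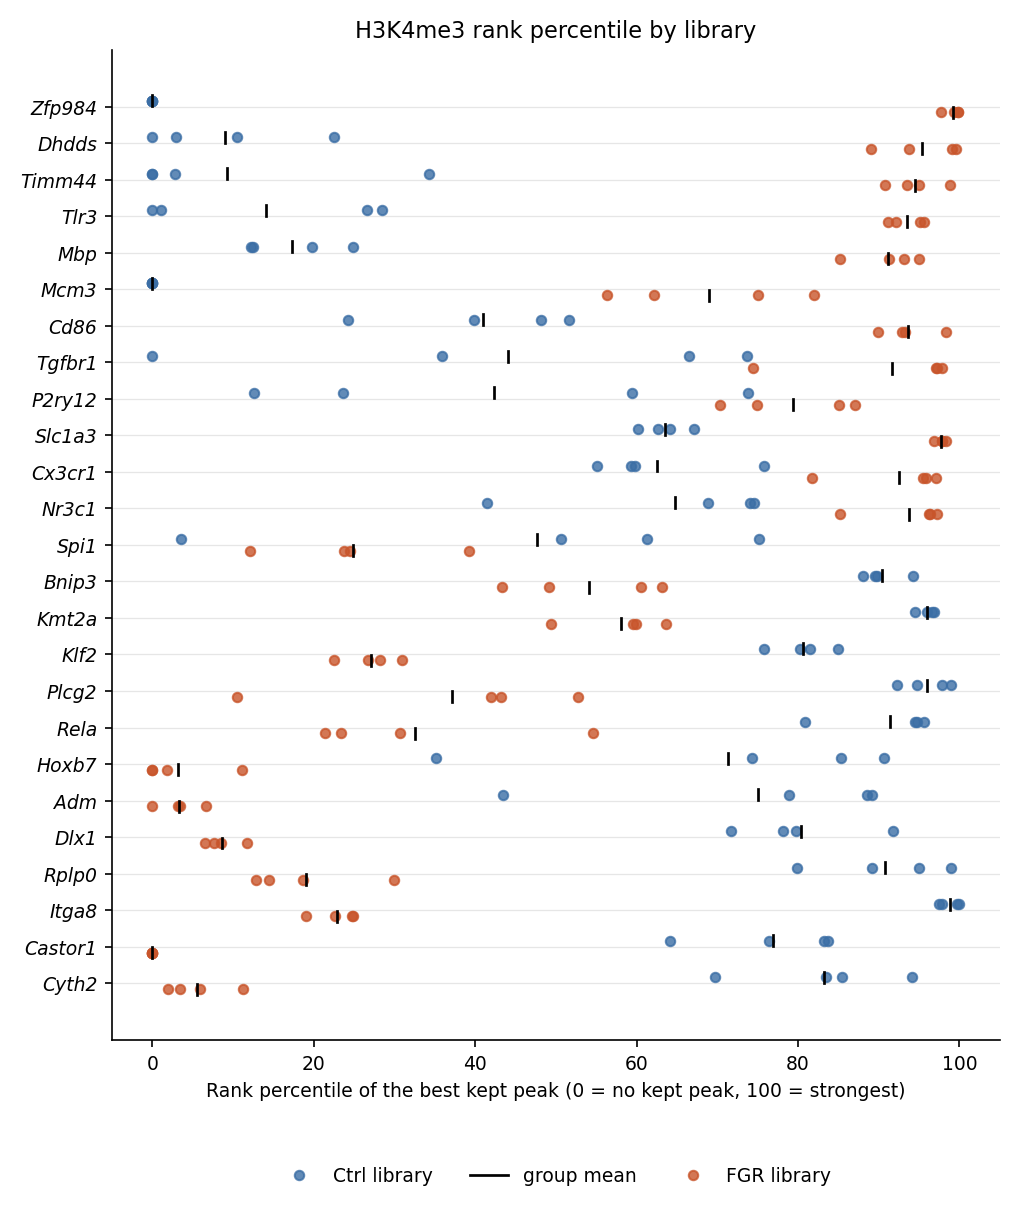
Rank percentile of the best kept peak at each gene start (horizontal axis, 0 = no kept peak, 100 = strongest) for 25 genes, with 1 point per library and a bar at the group mean (4 libraries per group). Zfp984 sits at 0 in all Ctrl libraries and at 97.7 or more in FGR, Castor1 shows the opposite, and P2ry12 and Spi1 overlap between groups.

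The second measure was relative width, the summed length of kept peaks that reach within 1 kb of the gene start, divided by the median over genes of the same library and taken as log2. It sets aside the wider peaks of FGR as a whole, whose median gene width was 1735 to 1813 bp against 879 to 946 bp in Ctrl. Of 8264 genes with a kept peak in all 8 libraries, 964 were wider in FGR (11.7%) and 843 narrower (10.2%) by limma at an adjusted p under 0.05, with a median difference of 0.041. In 1 simulated set with the replicate spread of these libraries, 22 unchanged genes were called by width beside 14 of 100 shifted by 0.5 and 56 of 100 shifted by 1.0, a larger share of false calls than the threshold of 0.05 allows for. The SD between replicates at the median gene was 0.349 in Ctrl and 0.077 in FGR. Leaving out FGR replicate 1, 2, 3 or 4 lowered the wider calls to 563, 489, 510 and 508 and the narrower ones to 413, 314, 315 and 319. Of the 8264 genes, 104 were higher and wider, 47 higher and narrower, 44 lower and wider, and 89 lower and narrower, so that calls on both measures were more often in the same direction than in opposite ones.

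The genes that gained most in width had short or broken peaks in Ctrl and domains of several kb in FGR. The 12 at the top gained 2.02 to 3.00 in log2 relative width and included Qk, Irf2bp2, Bmp2k, Dtx4, Pik3cd, Itm2b, Actb, Iffo1, Fcrls, Klf3 and Wdr44. Qk, the RNA-binding protein quaking (chr17:10206471-10319361), spanned 861, 698, 911 and 300 bp in Ctrl and 8919, 8143, 12219 and 11278 bp in FGR, a difference of 3.00 ± 0.33 (SE) in log2 relative width with an adjusted p of 0.00148. Irf2bp2, a corepressor that partners IRF2 (chr8:126588296-126593986), spanned 782, 595, 404 and 641 bp in Ctrl and 9460, 8960, 7301 and 8788 bp in FGR (difference 2.89, adjusted p = 0.000198). Both starts were several kb wider in every FGR library than in any Ctrl library. Itm2b, the membrane protein BRI2, spanned 464, 309, 768 and 607 bp and 4238, 5170, 4913 and 4866 bp (difference 2.26, adjusted p = 0.00149), and Bmp2k, a kinase, 1038, 1083, 289 and 692 bp and 8701, 8542, 8235 and 8320 bp (difference 2.65, adjusted p = 0.0026). With peaks clipped to 2.5 kb on either side of the start, the calls of Qk, Irf2bp2 and Bmp2k were lost and the difference of Qk became -0.18. The Itm2b call stayed, but it was lost, as was that of Bmp2k, with peaks within 1 kb merged. Clipping limits the longest widths and counts peaks that lie beyond 1 kb, so it does not show where the gain lay.

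Of the 12 genes with the largest difference toward narrower, Tmcc3 had the lowest difference, -1.17, and the next lowest was -0.97, at Adora2b. Adora2b, an adenosine receptor (chr11:62248984-62266452), spanned 1346, 1039, 1344 and 1393 bp in Ctrl and 1317, 1211, 1283 and 1291 bp in FGR, a difference of -0.97 ± 0.13 (SE, adjusted p = 0.00232). Its rank also fell, by 62.2 percentile points. Bcas3 spanned 1352, 1228, 1332 and 1340 bp and 1382, 1337, 1339 and 1266 bp (difference -0.95, adjusted p = 0.00136), and Ndufc1, a subunit of respiratory complex I, 638, 643, 501 and 560 bp and 603, 608, 608 and 604 bp (difference -0.92, adjusted p = 0.002). Pparg, a nuclear receptor of lipid metabolism, spanned 1251, 1368, 1443 and 1186 bp and 1450, 1470, 1457 and 1364 bp (difference -0.84, adjusted p = 0.00264), with a rank difference of 0.346 points. In base pairs the groups overlapped or nearly touched at these 4 genes, and other genes called narrower, such as Rela and Ldha, had a longer mean in FGR, so narrower here is a statement about each gene relative to its library and not about bases lost.

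**Figure D3:**
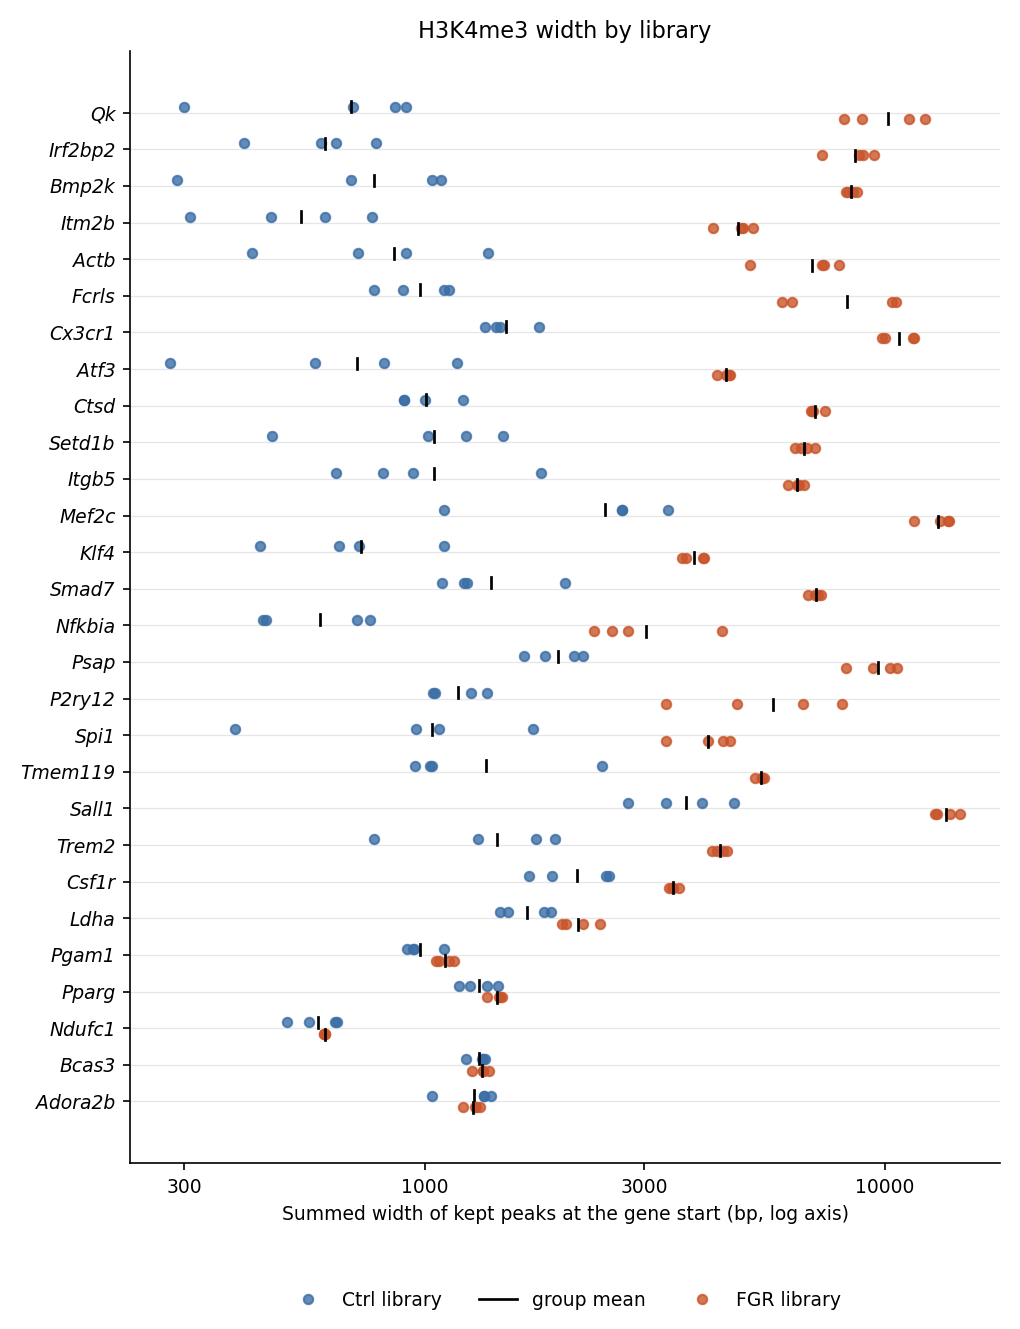
Summed width of kept H3K4me3 peaks at each gene start (bp, logarithmic horizontal axis) for 28 genes, with 1 point per library and a bar at the group mean (4 libraries per group). Genes at the top span several kb in FGR, where no Ctrl library of Qk, Irf2bp2 or Bmp2k exceeds 1083 bp, and those at the foot, from Ndufc1 to Adora2b, overlap between groups in bp.

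Among genes that define microglia, gains in width outnumbered losses. Over all genes tested 11.7% were wider and 10.2% narrower, and 11.8% ranked higher and 6.59% lower. The counts of every list below stand beside these shares. Among homeostatic microglia genes, 9 of 27 tested were wider in FGR and 1 narrower (Cst3), with a median difference of 0.515 against 0.041 over all genes, and their median width was 2257 bp in Ctrl and 5368 bp in FGR. By rank, 5 of 29 were higher (Cx3cr1, Mef2c, Tgfbr1, C1qa and Slc2a5, the last without a peak in Ctrl) and 0 lower by limma (0 also at an unadjusted p under 0.05, where 11 were higher), with a median difference of 14.6 points against 4.52. The higher count was 1 without FGR replicate 1 and 0 without FGR replicate 2, 3 or 4, while 7 were wider without any 1 FGR library and 10 to 12 without any 1 Ctrl library. With peaks clipped to 2.5 kb on either side of the start, 2 were wider and 12 narrower, with a median of -0.276. Clipping caps the long FGR domains more than the shorter Ctrl ones, so it does not show where the gain lay.

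Cx3cr1, the fractalkine receptor (chr9:120048683-120068296), spanned 1774, 1429, 1455 and 1353 bp in Ctrl and 11527, 9994, 9849 and 11555 bp in FGR, a gain of 1.87 ± 0.12 (SE, adjusted p = 0.000198). Its percentile was 59.3, 59.8, 55.1 and 75.8 in Ctrl and 81.7, 95.5, 95.9 and 97.1 in FGR, a difference of 30.1 points (adjusted p = 0.0175). The groups did not overlap on either measure, but the rank call was lost without FGR replicate 2, 3 or 4, and the width difference became -0.03 when clipped to 2.5 kb. Fcrls, an Fc receptor-like gene typical of mouse microglia (chr3:87250736-87263765), spanned 898, 1098, 776 and 1127 bp and 5965, 10352, 10546 and 6292 bp (difference 2.08, adjusted p = 0.00133), and 0.23 when clipped to 2.5 kb, where the call was lost. P2ry12, the ADP receptor that steers microglial processes (chr3:59216271-59262985), spanned 1052, 1041, 1260 and 1368 bp and 6634, 8056, 4766 and 3346 bp (difference 1.23, adjusted p = 0.0108). Its percentile was 23.6, 73.8, 12.6 and 59.4 in Ctrl and 87.1, 70.4, 85.1 and 74.9 in FGR and overlapped between groups (adjusted p = 0.0769).

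Tmem119, the locus of the reporter (placed by both gene ends, chr5:113793729-113800396), spanned 1036, 950, 2423 and 1026 bp in Ctrl and 5403, 5460, 5208 and 5401 bp in FGR (difference 1.13, adjusted p = 0.0219). All FGR values were higher. The call was lost without any 1 FGR library, with peaks within 1 kb merged and on clipping to 2.5 kb. On clipping the difference was -0.15. The percentile of Tmem119, 99.8, 64.2, 77.8 and 97.5 in Ctrl and 95.3, 95.7, 95.1 and 93.7 in FGR, did not pass (adjusted p = 0.317). Csf1r, the receptor on which microglial survival depends (both ends, a window shared with a neighbouring gene), spanned 1687, 1888, 2511 and 2482 bp and 3443, 3400, 3462 and 3561 bp, a difference of -0.26 in log2 relative width that did not pass (adjusted p = 0.275). Slc2a5, the fructose transporter GLUT5 (chr4:150119344-150144168), had no kept peak in any Ctrl library and stood at 74.3, 34.5, 26.1 and 53.5 in FGR.

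Microglial transcription factors were called wider and not narrower, and gave fewer calls by rank. Of 25 tested, 13 were wider in FGR and 0 narrower by limma (0 also at an unadjusted p under 0.05), namely Atf3, Mef2c, Elf1, Runx1, Cebpb, Klf4, Jun, Bhlhe41, Cebpa, Mef2a, Klf2, Sall1 and Fli1. The median difference was 0.691, and the median width 1445 bp in Ctrl and 4539 bp in FGR. By library, the median log2 relative width of the list was 0.62, 0.664, 0.318 and 0.779 in Ctrl and 1.4, 1.43, 1.36 and 1.43 in FGR, without overlap. Without FGR replicates 1, 2, 3 or 4 the wider count was 9, 7, 8 and 7, and on clipping to 2.5 kb it was 4, with 1 narrower. By rank, 5 of 29 were higher (Klf6, Mef2c, Nr3c1, Smad4 and Mef2a) and 1 lower (Klf2), with a median of 13.2 points, and the higher count was 0 without any 1 FGR library.

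Mef2c, a MADS-box factor of homeostatic microglia (chr13:83504017-83667079), spanned 3379, 2686, 1102 and 2682 bp in Ctrl and 11574, 13817, 13173 and 13693 bp in FGR, a difference of 1.55 ± 0.30 (SE, adjusted p = 0.00898). Its percentile was 81.5, 81.1, 44 and 88.7 in Ctrl and 99.7, 99.4, 99.7 and 99.2 in FGR (adjusted p = 0.0425), and that rank call was lost without any 1 FGR library. The FGR domains at Mef2c were several times longer than those of Ctrl in every pair of libraries. Sall1, which maintains microglial identity (chr8:89027242-89044162), spanned 3336, 2766, 4008 and 4693 bp and 12872, 14580, 13828 and 12983 bp (difference 0.93, adjusted p = 0.00857). It was the widest start of the FGR group by mean and among the widest of Ctrl, and its difference became -0.07 when peaks within 1 kb were merged and -0.36 when clipped to 2.5 kb. Spi1, the gene of PU.1 (both ends, chr2:91082374-91115759), spanned 959, 1719, 387 and 1075 bp and 4441, 4613, 3343 and 4118 bp and did not pass (difference 1.20, adjusted p = 0.0536). Its percentile, 61.3, 75.2, 3.5 and 50.7 in Ctrl and 24.5, 23.8, 12.1 and 39.3 in FGR, overlapped between groups (adjusted p = 0.283).

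Immediate early genes, whose transcription is known to rise within minutes of a stimulus or of cell handling, gained width in the largest share among the lists plotted. Of 17 tested, 10 were wider (Atf3, Klf4, Btg2, Dusp1, Nr4a3, Jun, Fosl2, Zfp36, Klf2 and Ier2) and 1 narrower (Egr2), with a median of 0.761 and median widths of 1255 bp in Ctrl and 3801 bp in FGR. The wider count was 9, 8, 9 and 8 without FGR replicates 1, 2, 3 and 4, 10 without any 1 Ctrl library, and 6 with peaks clipped to 2.5 kb. By rank, 1 of 22 was higher (Klf6) and 1 lower (Klf2). Atf3, a stress-induced factor (chr1:191170296-191183333), spanned 578, 1176, 817 and 279 bp in Ctrl and 4583, 4507, 4325 and 4611 bp in FGR (difference 1.87, adjusted p = 0.0103), and Klf4 spanned 1100, 651, 439 and 718 bp and 3630, 4044, 4022 and 3695 bp (difference 1.51, adjusted p = 0.00351). The Klf4 call was lost with peaks within 1 kb merged and in the top 10000 peaks. Klf2 combined the opposite directions. Its start spanned 593, 485, 576 and 905 bp and 1735, 2440, 2329 and 2318 bp (difference 0.84, adjusted p = 0.0197) while its percentile fell from 80.2, 75.8, 85 and 81.5 in Ctrl to 26.7, 31, 28.2 and 22.5 in FGR (adjusted p = 0.0057), and the width call was lost without FGR replicate 2, 3 or 4. Handling of the cells is not described in the labels, and its part in these widths was not tested.

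**Figure D4:**
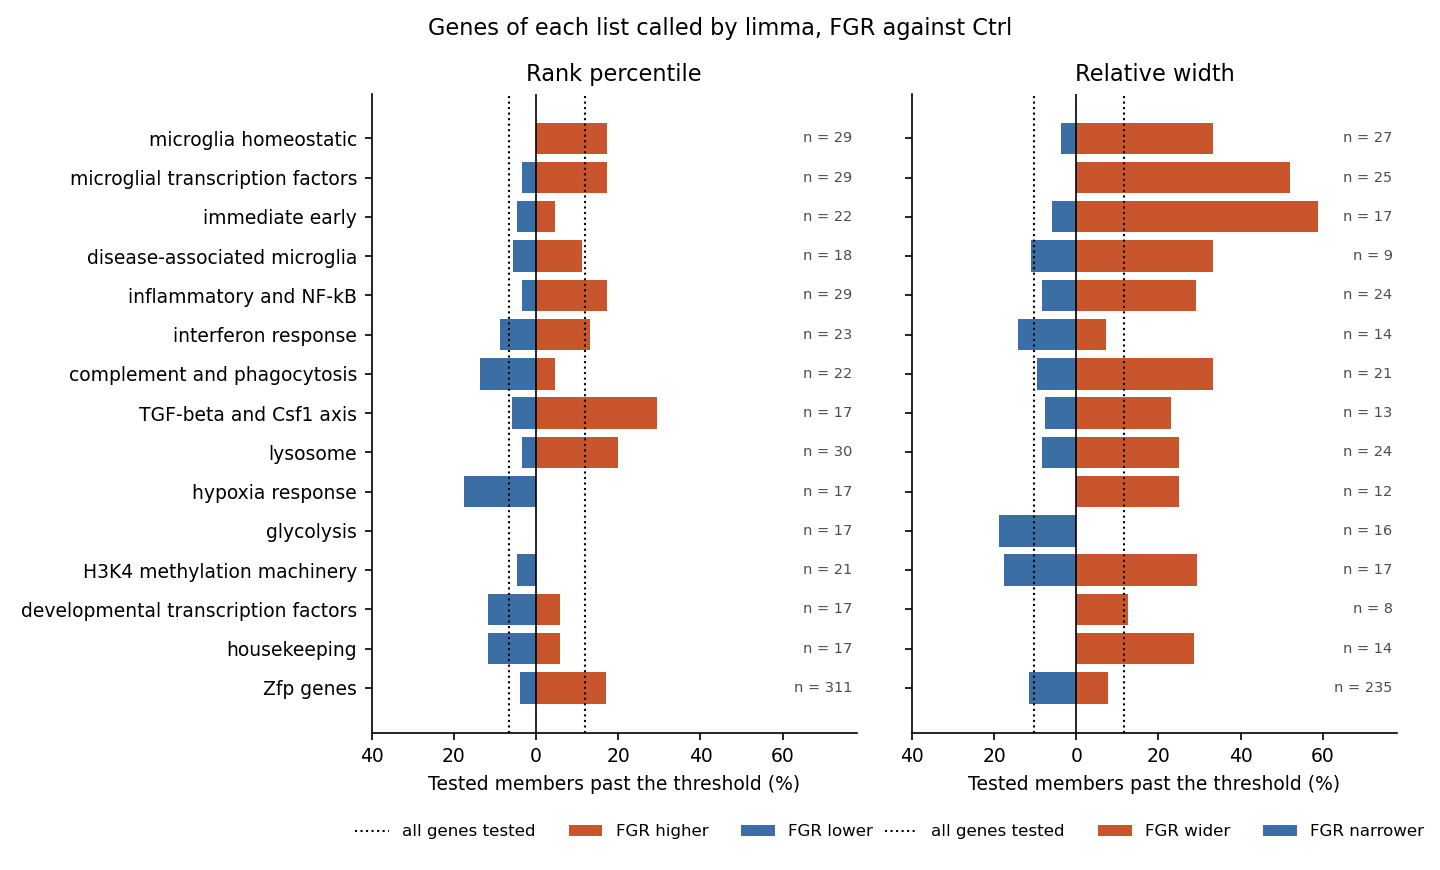
Share of tested genes of each list (%, horizontal axes) that limma called higher or wider in FGR (right of 0) or lower or narrower (left of 0), by rank percentile (left panel) and relative width (right panel), with the number tested at the right edge. Dotted lines mark the shares over all genes tested, and immediate early genes and microglial transcription factors extend farthest in width.

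Sensors and signalling genes of innate immunity were mixed. Of 29 inflammatory and NF-kB genes, 5 ranked higher (Tlr3, Tlr7, Tlr13, Casp1 and Tnfaip3, 2 of them without a peak in Ctrl) and 1 lower (Rela), with a median of 12.6 points, and 1 was higher without any 1 FGR library. Of 24, 7 were wider (Nlrp3, Nfkbia, Traf6, Il1a, Tlr2, Nfkb1 and Il6) and 2 narrower (Irak3 and Rela). In rank 17.2% were thus higher and 3.45% lower, against 11.8% and 6.59% of all genes. In width 29.2% were wider and 8.33% narrower, against 11.7% and 10.2%. Tlr3, a receptor for double-stranded RNA (chr8:45395665-45411075), stood at 0, 1.1, 28.5 and 26.6 in Ctrl and 95.1, 92.1, 91.1 and 95.6 in FGR, a difference of 79.4 ± 11.6 (SE). Tlr7, the X-linked receptor for single-stranded RNA (both ends, chrX:167303380-167330574), had no kept peak in Ctrl and stood at 39.1, 49.9, 46.3 and 59.9 in FGR. Rela, the p65 subunit of NF-kB, went the other way, from 94.5, 94.8, 80.9 and 95.6 in Ctrl to 30.7, 21.4, 54.6 and 23.4 in FGR (adjusted p = 0.00481), while its inhibitor gene Nfkbia spanned 712, 452, 759 and 445 bp and 2335, 4427, 2762 and 2554 bp (difference 1.38, adjusted p = 0.00645). The groups did not overlap in rank at Rela, which had a kept peak in all 8 libraries.

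Genes of the interferon response gave calls in both directions. By rank 3 of 23 were higher (Stat2, Ifih1 and Isg15) and 2 lower (Ifnar1 and Irf3), and by width 1 of 14 was wider (Ifngr1) and 2 narrower (Trim25 and Ifnar2). The rank shares, 13% and 8.7%, lay near the 11.8% and 6.59% of all genes. The width shares were 7.14% and 14.3%, against 11.7% and 10.2%. The windows of Stat2 and Irf3 are shared with a neighbouring gene. Ifnar1, a chain of the type I interferon receptor (chr16:91485032-91510523), stood at 99.4, 86.3, 98.5 and 91.6 in Ctrl and 65.5, 64.7, 54.9 and 65.4 in FGR (adjusted p = 0.00983). Antigen presentation gave 2 of 16 higher and 0 lower by limma (3 and 2 at an unadjusted p under 0.05), and 2 of 12 wider and 2 narrower. Its share of higher genes, 12.5%, lay near the 11.8% of all genes. Its width shares were 16.7% each way, against 11.7% and 10.2%. Cd86, which costimulates T cells (both ends, chr16:36568956-36666158), passed on both measures: its percentile was 39.9, 24.2, 51.6 and 48.2 in Ctrl and 98.3, 89.9, 93.2 and 92.9 in FGR (adjusted p = 0.0043), and it spanned 334, 470, 707 and 653 bp and 2553, 2806, 3251 and 3039 bp (difference 1.51, adjusted p = 0.00484). Both calls at Cd86 held with each library left out in turn.

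Complement and phagocytosis genes were wider more often than they were higher. Of 21 tested, 7 were wider (Fcgr3, Syk, Stab1, Itgb5, Pros1, Mertk and Dock1) and 2 narrower (Rac2 and Itgav), with a median of 0.532, and the wider count was 3 or 4 without any 1 FGR library. By rank 1 of 22 was higher (C3ar1) and 3 lower (Lrp1, Elmo1 and Plcg2). The rank shares were 4.55% and 13.6%, against 11.8% and 6.59% of all genes. In width 33.3% were wider and 9.52% narrower, against 11.7% and 10.2%. Itgb5, an integrin chain of the receptor that binds apoptotic cells (chr16:33829665-33949338), spanned 1791, 641, 942 and 811 bp in Ctrl and 6497, 6437, 6672 and 6151 bp in FGR (difference 1.76, adjusted p = 0.00314). That call was lost on clipping to 2.5 kb. Plcg2, the phospholipase that acts below the receptor TREM2 (chr8:117498275-117635142), stood at 97.8, 94.7, 98.9 and 92.3 in Ctrl and 42, 10.5, 43.2 and 52.8 in FGR (adjusted p = 0.00427). Trem2 itself did not pass on either measure, at 88.7, 70.2, 71.4 and 69.9 in Ctrl and 98.9, 98.2, 81.9 and 96.8 in FGR for rank (adjusted p = 0.0565) and a width difference of 0.72 (adjusted p = 0.0619). Among genes of disease-associated microglia, the state known from amyloid models, 2 of 18 ranked higher (Cd9 and Lpl) and 1 lower (Csf1), and 3 of 9 were wider (Csf1, Tyrobp and Ctsd) and 1 narrower (Lpl). Their rank shares, 11.1% and 5.56%, lay near the 11.8% and 6.59% of all genes. Their width shares were 33.3% and 11.1%, against 11.7% and 10.2%. Apoe, a leading gene of that state, had a kept peak in Ctrl replicate 2 alone, at 19.9.

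In the TGF-beta and Csf1 axis, 5 of 17 genes ranked higher (Tgfbr1, Csf2ra, Tgfb3, Nrros and Smad4) and 1 lower (Csf1), against 11.8% and 6.59% of all genes, with a median of 16 points against 4.52, and 3 of 13 were wider (Smad7, Csf1 and Tgfb1) and 1 narrower (Tgfbr3). The higher count was 0 without any 1 FGR library and 3 without Ctrl replicate 4. Tgfbr1, the type I receptor of TGF-beta (chr4:47353222-47414926), stood at 66.5, 73.7, 0 and 35.9 in Ctrl and 74.4, 97.1, 97.2 and 97.8 in FGR. Ctrl libraries spread over most of the scale at this gene, and the call was lost without Ctrl replicate 4 or any 1 FGR library. Csf2ra, the alpha chain of the GM-CSF receptor (chr19:61217191-61228461), had no kept peak in Ctrl and stood at 58, 44.5, 44.4 and 46.8 in FGR. Smad7, the feedback inhibitor of the pathway (both ends, chr18:75367365-75395935), spanned 1238, 1217, 2019 and 1087 bp and 6815, 7165, 7274 and 7048 bp (difference 1.42, adjusted p = 0.00246), and -0.01 when clipped to 2.5 kb.

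Of 30 lysosomal genes tested, 6 ranked higher (20% against 11.8% of all genes), among them Ctsa, Ctsc, Lamp1, Lamp2 and Gla, and 1 lower (Man2b1; 6.59% of all genes were lower), with a median of 17.6 points, and the higher count was 1 or 2 without any 1 FGR library. By width 6 of 24 were wider (Psap, Ctsd, Gusb, Ctsc, Hexa and Ctsh) and 2 narrower, among them Ctsa, and the windows of Gla, Ctsa and Hexa are shared with a neighbour. Lamp1, the main glycoprotein of the lysosomal membrane (chr8:13159161-13175338), stood at 7.7, 22.7, 8.4 and 21.1 in Ctrl and 73.8, 43.5, 66.1 and 67.3 in FGR (adjusted p = 0.0121), a call lost without FGR replicate 3 or 4. Gla, the X-linked alpha-galactosidase, had no kept peak in Ctrl and 49.1, 43.2, 62.7 and 48.8 in FGR. Ctsd, the aspartic protease cathepsin D (chr7:142375910-142387827), spanned 1212, 902, 903 and 1000 bp and 7411, 6943, 6921 and 6974 bp (difference 1.85, adjusted p = 0.000198), and Psap, the saposin precursor (chr10:60277628-60302600), 2107, 2209, 1641 and 1825 bp and 8229, 10631, 9444 and 10248 bp (difference 1.34, adjusted p = 0.00121). The FGR domain at both genes exceeded every Ctrl domain several times, and for Ctsd the difference was -0.33 when clipped to 2.5 kb.

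Rank calls in the hypoxia response were downward. Of 17 tested, 3 were lower (Adm, Ndrg1 and Bnip3) and 0 higher by limma (0 also at an unadjusted p under 0.05, where 7 were lower), with a median of -13.2 points, while 3 of 12 were wider (Bnip3l, Hif1an and Egln1). That is 17.6% lower, against 6.59% of all genes, and 25% wider, against 11.7%. The lower count was 3 without FGR replicate 1 or 2, 2 without FGR replicate 3 or 4, and 3 or 4 without any 1 Ctrl library. Adm, the vasodilator peptide adrenomedullin (chr7:110627657-110629820), stood at 78.9, 88.5, 43.4 and 89.2 in Ctrl and 0, 6.6, 3.4 and 3.2 in FGR, a difference of -71.7 ± 12.2 (SE). Bnip3, a receptor for mitophagy (chr7:138890836-138909506), stood at 94.2, 89.8, 89.5 and 88 in Ctrl and 60.6, 63.2, 43.3 and 49.2 in FGR (adjusted p = 0.0119). Ndrg1, a stress-responsive gene (both ends), stood at 42.5, 70.6, 80 and 37.8 and 13.5, 5.4, 0 and 4.4, a call lost without FGR replicate 3 or 4. Every FGR value lay below every Ctrl value at Bnip3, which had a kept peak in all 8 libraries.

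Glycolysis genes gave 0 calls by rank with limma in 17 tested (1 higher and 1 lower at an unadjusted p under 0.05), with a median of -4.14 points, and 0 wider and 3 narrower of 16 by width (Pgam1, Ldha and Pfkm, whose window is shared). At an unadjusted p under 0.05, 4 of the 16 were wider and 3 narrower. Their median width difference was 0.275, against 0.041 over all genes, and 11 of the 16 differences were positive. Pgam1, phosphoglycerate mutase, spanned 944, 946, 1098 and 913 bp in Ctrl and 1076, 1058, 1158 and 1127 bp in FGR (difference -0.79, adjusted p = 0.00418). The Pgam1 call was lost with peaks within 1 kb merged. Ldha, lactate dehydrogenase A, spanned 1817, 1456, 1520 and 1884 bp and 2026, 2405, 2202 and 1991 bp (difference -0.60, adjusted p = 0.00854). Both were slightly longer in bp in FGR, by less than the library medians. Genes of glucocorticoid signalling, a route by which stress before birth is known to act, gave 2 of 14 higher and 0 lower by limma (4 and 0 at an unadjusted p under 0.05), and 3 of 10 wider and 1 narrower. The share of higher genes, 14.3%, lay near the 11.8% of all genes. In width 30% were wider and 10% narrower, against 11.7% and 10.2%. Nr3c1, the glucocorticoid receptor (both ends, chr18:39410545-39519421), stood at 68.9, 74, 74.6 and 41.5 in Ctrl and 85.2, 97.2, 96.3 and 96.2 in FGR (adjusted p = 0.0296), a call lost without any 1 FGR library.

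The enzymes that write and erase the mark gave few calls by rank. Of 21 genes of the H3K4 methylation machinery, 1 was lower (Kmt2a) and 0 higher by limma (2 each at an unadjusted p under 0.05), and of 17 by width 5 were wider (Setd1b, Kmt2c, Kdm2b, Kdm5a and Kmt2a) and 3 narrower (Dpy30, Wdr5 and Kmt2b). Kmt2a, the methyltransferase MLL1 (chr9:44803355-44881352), fell from 96, 96.6, 94.5 and 96.9 in Ctrl to 49.4, 59.9, 59.6 and 63.6 in FGR, a difference of -37.9 ± 6.96 points (SE, adjusted p = 0.00427). Its width of 1759, 993, 638 and 1015 bp in Ctrl and 3571, 3964, 3535 and 3602 bp in FGR passed as well (difference 0.86, adjusted p = 0.0362), a call lost without Ctrl replicate 2 or 4 or any 1 FGR library. That width call was kept in 11 of 17 other settings, and was lost on merging peaks and on clipping to 2.5 kb. Setd1b, a catalytic subunit of the SET1 complex (both ends, chr5:123142040-123168630), spanned 1015, 1227, 466 and 1479 bp and 6769, 6562, 7050 and 6365 bp (difference 1.82, adjusted p = 0.00557). The Setd1b call was lost on clipping to 2.5 kb. Kdm5b, an H3K4 demethylase, stood at 0, 80, 0 and 64 in Ctrl and 20, 36.1, 42.4 and 40.9 in FGR and did not pass (adjusted p = 0.968).

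Housekeeping genes, often used as references, were not exempt. Of 17 housekeeping genes, 1 ranked higher (Tbp, in a shared window) and 2 lower, among them Rplp0, and 4 of 14 were wider, among them Actb, Ppia and Tuba1b, and 0 narrower by limma (0 also at an unadjusted p under 0.05). Rplp0, a protein of the large ribosomal subunit (chr5:115559467-115563729), stood at 79.9, 99, 89.2 and 95 in Ctrl and 30, 12.8, 14.5 and 18.7 in FGR (adjusted p = 0.00195). Actb, cytoplasmic beta-actin (both ends), spanned 420, 1374, 911 and 716 bp in Ctrl and 7379, 7955, 7288 and 5100 bp in FGR (difference 2.15, adjusted p = 0.00427), a call lost on clipping to 2.5 kb, on merging peaks and with a window of 2.5 kb. The gain in width was therefore found at genes of general function as well as at microglial genes.

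Zinc finger genes gave calls in both directions. Of 311 genes named Zfp, 53 ranked higher (17% against 11.8% of all genes) and 12 lower, and 7 of the 53 had no kept peak in Ctrl, with a median of 10.8 points, and by width 18 of 235 were wider and 27 narrower, with a median of -0.052. The higher count was 14 to 17 without any 1 FGR library. Cell cycle genes gave 6 of 24 higher (25%) and 3 lower (12.5%), against 11.8% and 6.59% of all genes. Of the 6, 2 had no kept peak in Ctrl. Mcm3, a subunit of the replicative helicase (chr1:20802966-20820312), had no kept peak in Ctrl and stood at 56.4, 75.1, 62.2 and 82 in FGR. Developmental transcription factors, which in differentiated cells commonly carry H3K4me3 beside a repressive mark, had a median of -21.6 points over the 17 tested of 60, with 2 lower (Dlx1 and Dlx2) and 1 higher. Dlx1, a homeobox gene of forebrain neurons (chr2:71528113-71533981), stood at 79.8, 91.8, 78.2 and 71.7 in Ctrl and 7.7, 11.8, 8.5 and 6.5 in FGR (adjusted p = 0.00179). Of 6 Hox genes tested out of 39, 2 were lower, among them Hoxb7 (both ends) at 35.2, 90.7, 85.3 and 74.3 in Ctrl and 11.1, 0, 0 and 1.8 in FGR.

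The direction of the list medians by rank depended on how lists were made equal. With lists shortened to equal covered genome in place of equal length, which leaves FGR lists with fewer peaks than Ctrl lists, the median over all genes moved to -30.9 points, and calls became 406 higher and 4548 lower. Of the plotted lists with a positive median, the homeostatic list alone kept one. In that setting the homeostatic median was 1.41 and the lysosomal one -12.1, above the median of all genes, while the hypoxia median of -52.3 and the housekeeping median of -46 lay below it. By rank among genes, the medians were 17.6 for homeostatic genes, 16.4 for lysosomal genes, 8.93 for zinc finger genes, -21.4 for the hypoxia response and -0.463 for disease-associated microglia, whose direction also flipped there, as did that of the H3K4 methylation machinery at -5.33.

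Some genes of other brain cells also moved. Mbp, the myelin basic protein gene, whose locus also makes transcripts outside myelin (both ends, chr18:82475091-82585637), stood at 12.5, 19.8, 24.9 and 12.2 in Ctrl and 85.2, 95, 93.1 and 91.3 in FGR (adjusted p = 0.00179). Slc1a3, an astrocytic glutamate transporter (chr15:8634124-8710807), stood at 67.1, 64.2, 60.2 and 62.7 and 98.4, 97.8, 97.9 and 96.9 (adjusted p = 0.00345), above every Ctrl library. Myrf, a regulator of myelin genes (both ends), went the other way, from 13.3, 88.7, 72.3 and 90.6 in Ctrl to 0, 4, 0 and 0 in FGR. With 1 of 6 tested astrocyte genes higher and 1 lower, and 1 of 3 tested oligodendrocyte genes each way, these lists gave no common direction. Fewer cells of a type and less of the mark per cell cannot be told apart in bulk chromatin.

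The broadest starts of each library, the top 500 by summed width, were compared as sets. All 4 Ctrl libraries shared 142 genes of their top 500, all 4 FGR libraries 370, and 76 genes were in all 8, which is 53.5% of the Ctrl set and 20.5% of the FGR set. The shortest of the top 500 spanned 1756 to 1872 bp in the Ctrl libraries, against 3830 to 4132 bp for FGR. Homeostatic microglia genes supplied 8 of the 142 in the Ctrl set, 18 of the 370 in the FGR set and 6 of the 76 in both, out of 34. Microglial transcription factors supplied 2, 13 and 2, out of 32, where 21888 genes were placed. The FGR set is the larger, so a higher count there is not by itself a higher share of the set. Myc, a growth regulator, was the broadest by mean in Ctrl at 4140, 4027, 4231 and 3498 bp, and spanned 4842, 4886, 4866 and 4880 bp in FGR. Zeb2, a zinc finger factor of myeloid cells, spanned 2008, 3952, 3845 and 2790 bp in Ctrl and 11008, 14126, 13639 and 11252 bp in FGR. Irf8, a factor required for microglia, spanned 3130, 3698, 3110 and 3362 bp against 7532, 8017, 8072 and 7984 bp, and P2ry13, a purine receptor beside P2ry12, 3777, 3914, 3186 and 3006 bp against 7214, 8104, 7736 and 7439 bp. Myc differed least between groups among these 4 genes, and at each of them every FGR library exceeded every Ctrl library.

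Kept peaks of all 8 libraries merged into 21021 regions. Of these, 9037 had a peak in every library, and 84.7% of the shared regions lay at gene starts. A further 925 had a peak in every FGR library and no Ctrl library, of which 43.6% lay at gene starts, and 145 were of the opposite kind, 31.7% at gene starts. Requiring that peaks cover at least 50% of a region gave 5384 and 75. Regions were merged from the peaks of all 8 libraries, so this rule is harder to meet for the shorter Ctrl peaks. The longest found in FGR alone spanned 7765 bp at chrX:13631636-13639400 inside Cask, next to Gpr34, a microglial receptor gene, and others lay at the starts of Stag2 (chrX:42149364-42153608), a cohesin subunit, and Bcl2a1d (chr9:88729252-88732942), an inhibitor of apoptosis. The remaining 2 of the 5 longest were chrX:13568881-13572509, in Cask, and the intergenic chr17:37546527-37549642, which is 13498 bp from Olfr112. Those found in Ctrl alone were shorter, with 1934 bp at the start of Dnajc22 (chr15:99097017-99098950) and 1845 bp at Arap1 (chr7:101384150-101385994) at the top, followed by regions at Nkx2-3 (chr19:43614927-43616734), Lbx1 (chr19:45231237-45232789) and Fgd5 (chr6:91978453-91980000). Without Ctrl replicate 4 the Ctrl count was 226, a looser rule since fewer libraries must hold a peak.

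Chromosome X stood apart from the autosomes. It carried 0.903% ± 0.0642 of kept peaks in Ctrl and 2.58% ± 0.0514 in FGR (SD, n = 4 each), 2.85 times as much (exact permutation p = 0.0286, adjusted p = 0.0286). Of 316 X-linked genes tested by rank, 114 were higher in FGR (36.1%) and 0 lower by limma (165 and 1 at an unadjusted p under 0.05), against 11% and 6.78% on the autosomes. Of the 114, 53 had no kept peak in any Ctrl library and so entered the test through FGR alone. The median difference was 20.2 points on X and 3.85 on the autosomes. By width, 19 of 28 were wider and 0 narrower (20 and 0 at an unadjusted p under 0.05), with a median of 1.0. Without any 1 FGR library, 20 to 24 of 234 or 235 X-linked genes were higher in rank and 14 of 28 wider. Among the 28 X-linked genes with a kept peak in all 8 libraries, 1 was higher and 0 lower in rank, and with lists of equal covered genome 0 of 36 were higher and 13 lower, with a median of -24.9 points. Wdr44, which binds a Rab GTPase (chrX:23692402-23806026), spanned 523, 812, 411 and 400 bp in Ctrl and 3937, 4153, 4388 and 3912 bp in FGR (difference 2.02, adjusted p = 0.00142). Chromosome 11 was the opposite case, with 4.9% of its genes higher and 9.7% lower and a median of -3.6 points. Chromosome 19 also had more lower than higher calls, at 11.9% and 8.01%, with a median of 1.4 points. Among the strongest 5000 peaks alone, the difference in X share was 0.16 percentage points and did not pass.

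Values of other marks and of sex-linked genes stand beside that difference. H3K9ac lists had 1.79% to 1.88% (Ctrl) and 2.15% to 2.9% (FGR) of their kept peaks on X, and H3K27ac lists 1.76% to 1.84% (Ctrl) and 1.29% to 1.44% (FGR), so Ctrl H3K4me3 lists, at 0.834% to 0.979%, had the lowest X share of the 6 sets. Xist, the RNA of the inactive X, had no kept peak in any library. The Y-linked helicase gene Ddx3y had H3K4me3 percentiles of 0, 4, 0 and 0 in Ctrl and 52.6, 33.7, 74.7 and 52.5 in FGR. Uty, a Y-linked relative of a histone demethylase, had 13.4, 4, 0 and 0 against 52.6, 63, 74.7 and 63.4. Both genes met the rule for the rank test through the FGR libraries alone, so these values are a description. For H3K9ac the means went the other way, 67.8 in Ctrl and 2.8 in FGR for Ddx3y and 61.8 and 0 for Uty. The sex of the animals in each library and the part of labels or list depth in these values were not tested.

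**Figure D5:**
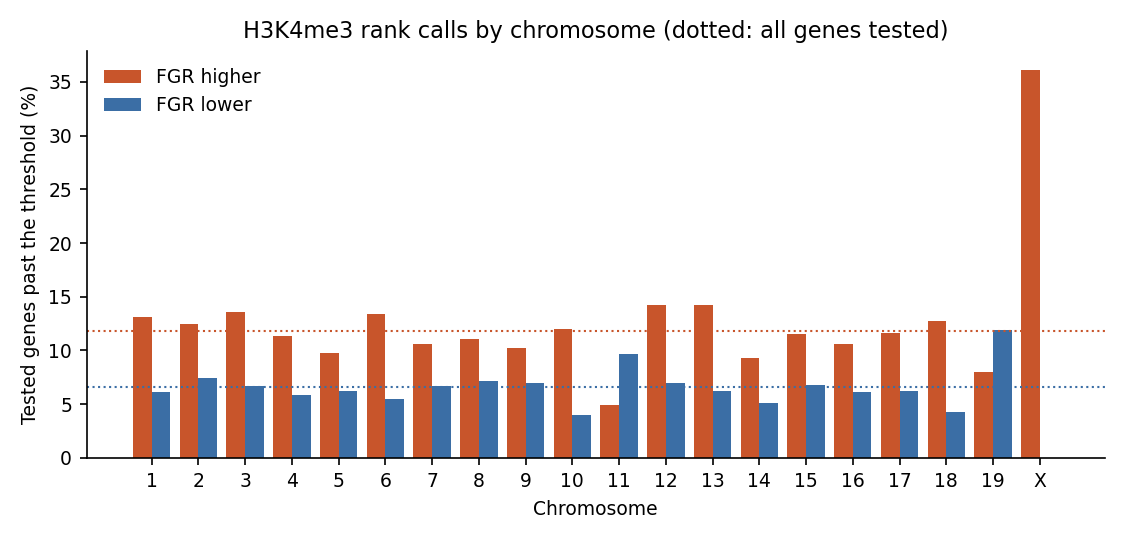
Share of tested genes on each chromosome (%, vertical axis) that limma called higher or lower in rank in FGR, with dotted lines at the shares over all genes tested (11.8% higher and 6.59% lower). Chromosome X reaches 36.1% higher, and chromosome 11 is the autosome with the fewest higher calls, at 4.9%.

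Base composition at the start differed with the rank calls. With genes split by GC into 5 bins of about equal size, 18.1% ranked higher and 4.96% lower in the lowest bin (31.7% to 54% GC), and 9.03% and 7.28% in the highest (68.3% to 88%). Width showed the reverse, with 15.2% wider in the highest bin and 10.4% in the lowest. Removing a linear GC term from each library left 1041 higher and 595 lower of 9274 genes with a sequence. The TATAAA motif, searched on both strands, was found in 9.92% of starts that ranked higher, 7.34% of those lower and 8.16% of the rest. GAGGAAGT was found in 4.54%, 2.94% and 3.56% by rank, and in 5.68% of wider, 3.31% of narrower and 3.6% of other starts by width. These shares are descriptions of the 81.6% (rank) and 82.6% (width) of tested genes whose start is in the RefSeq table.

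Acetylation was read at the same starts in lists of equal length. The median difference in H3K9ac percentile was 8.2 points at genes that ranked higher for H3K4me3, 7.7 at those lower and 9.1 at the rest. For H3K27ac it was 0.0, -10.8 and -5.6 points. By H3K4me3 width, the H3K27ac medians were -12.4 points at wider, -3 at narrower and -7.6 at other starts, while the library medians in FGR were 42.3 to 44.4 at wider, 11.9 to 22.2 at narrower and 21.9 to 26.4 at other starts, and in Ctrl 63.6 to 65.9, 44.5 to 47.1 and 50.8 to 51.8. Wider starts thus had the highest H3K27ac percentiles in both groups and the lowest median difference. These medians compare libraries of the same 2 groups and carry no test.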

How the data were processed

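H3K4me3 was profiled by ULI-NChIP-seq in 4 Ctrl and 4 FGR libraries, grouped by their titles. The build is mm10, and the tools named without a role are MACS2 2.2.7.1, DiffBind 3.12.0, Bowtie2 2.4.5, Trim Galore 0.6.5 and SAMtools 1.3.1, per the submitters' processing notes. The authors deposited 1 peak list per library. For every peak the authors deposited a ratio, its fold over local background, as well as a −log10 q-value and a −log10 p-value. These values belong to their own list and were used only to rank or describe peaks within it. The sources used here give no caller options and name no control library. No read counts were analysed, so depth is unknown and no counting interval is given. No 2 libraries shared an identical peak.

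Lists were restricted to chromosomes 1 to 19, X and Y and shortened to the 16553 peaks with the highest −log10 p. Gene positions came from RefSeq GRCm38.p6 for 21888 protein-coding genes, 17493 by a given start and 4395 by both gene ends where the table gives no start, and 3267 genes share a window with another. Rank percentile and log2 relative width were computed as defined with the results and compared by limma 3.58.1 (lmFit, eBayes with trend) in R 4.3.3, two-sided, at a threshold of 0.05 after Benjamini-Hochberg adjustment over every gene tested. Library values were compared by exact permutation tests, with Python 3.11.15, numpy 2.4.6, scipy 1.17.1 and pandas 2.3.3. On simulated data with the replicate spread of these libraries, 4 of 100 rank differences of 20 points and 19 of 100 of 40 points were recovered over 11369 genes. For width over 8264 genes, 14 of 100 differences of 0.5 and 56 of 100 of 1.0 were recovered. Among unchanged genes of the same runs, 2 were called by rank and 22 by width.

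The comparison, gene lists and named genes were chosen with earlier results of these data known. Named genes are the 12 with the largest difference in each direction, up to 3 per list and measure, and a fixed set (P2ry12, Tmem119, Cx3cr1, Csf1r, Sall1, Spi1, Trem2, Apoe, Actb, Kmt2a, Kdm5b and Nr3c1), and values are printed for a part of them, since some genes are not reported here. Other lists of peaks, inputs and marks were not used here beyond the comparisons stated.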

Additional observations from a re-analysis of the deposited data

Results flagged for a closer look

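Of 146 groups of 4 libraries examined, 19 (13%) held a library far from the other 3 by Dixon's ratio, where chance gives about 1 in 20. Ctrl libraries accounted for part of them. Ctrl replicate 1 covered the most genome, 11.42 Mb, and stood apart for the Trem2 percentile at 88.7. Ctrl replicate 2 was apart for the widths of Adora2b, 1039 bp, and Bcas3, 1228 bp, and held the sole Apoe peak at percentile 19.9. Ctrl replicate 3 was apart for the percentiles of Timm44 at 34.3, Rela at 80.9 and Mef2c at 44, and for the widths of Smad7, 2019 bp, and Tmem119, 2423 bp.

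Among FGR libraries, replicate 1 stood apart for the percentiles of Tgfbr1 at 74.4, Hoxb7 at 11.1, Cx3cr1 at 81.7 and Nr3c1 at 85.2, and for the width of Ctsd, 7411 bp. FGR replicate 2 was apart for the Kmt2a width, 3964 bp, and the Myrf percentile at 4. FGR replicate 3 was apart for the percentiles of Ifnar1 at 54.9 and Trem2 at 81.9. Of these genes, the rank calls of Cx3cr1, Mef2c, Nr3c1 and Tgfbr1 were also lost on leaving out some single libraries.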

How the results depend on the processing

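Over the genes shown, 1479 values kept direction and side of the threshold under an alternative, 84 kept direction but lost the call, and 8 reversed. The reversed width differences were those of Ctsd (-0.33), Cx3cr1 (-0.03), Qk (-0.18), Sall1 (-0.36), Smad7 (-0.01) and Tmem119 (-0.15) with peaks clipped to 2.5 kb around the start, and Sall1 (-0.07) with peaks within 1 kb merged. The rank of Lamp1 reversed to -0.32 at equal covered genome. In fits without a single library, 27 of 33 rank calls and 26 of 29 width calls shown were kept every time. Of those 33 rank calls, 7 are at genes with a kept peak in 1 group alone and were not tested without a library of that group.

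Counts of calls moved with the list length, where fewer genes were tested, and with the number of libraries. By rank, higher and lower calls were 874 and 433 in the top 5000 peaks and 406 and 4548 at equal covered genome. By width, wider and narrower calls were 351 and 337 in the top 10000 peaks, 89 and 70 in the top 5000, and 355 and 231 at equal covered genome. Genes with a kept peak in all 8 libraries gave 699 higher in rank, normal scores over genes gave 1429 lower, and rank among genes gave 1257 lower. Quantile normalization gave 1412 narrower, with 38.3% of width calls wider against 53.3%, and group weights, an alternative chosen after seeing the data, gave 411 narrower and 66.9% wider. The share of higher rank calls, 64.1%, became 49% by rank among genes, 47.4% by normal scores and 49.6% with a peak in all 8 libraries. Leaving out replicates gave 325 to 1507 higher and 183 to 781 lower in rank, and 489 to 1204 wider and 314 to 1124 narrower. Totals do not show which genes kept their call. Of 1807 width calls, 1202 were kept in the same direction with peaks within 1 kb merged, and 86 differences changed direction. Clipping to 2.5 kb kept 1348, with 72 changed, and the widest peak alone kept 1223, with 61 changed. Of 2085 rank calls, merging kept 1875, with 3 changed. The cause of these shifts was not tested.

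Regions in FGR only and in Ctrl only numbered 5384 and 75 with 50% of the region covered, 445 and 261 in the top 10000 peaks, and 494 and 236 in the top 5000, and merging peaks gave 447 in FGR only. The 50% rule is harder to meet for the shorter Ctrl peaks. Without a single library, regions in FGR only and in Ctrl only numbered 991 to 1222 and 152 to 226. Among the broadest starts, 46 were in all 8 libraries in the top 10000 peaks and 21 in the top 5000, where 56 were in all Ctrl libraries. In the top 5000 the group differences in the share of peaks at gene starts, 0.44, and on X, 0.16 percentage points, no longer passed. With a library left out, 3 against 4 libraries cannot pass an exact test at 0.05. The differences were then 13.06 to 13.59 Mb of covered genome, 697.1 to 724.9 bp of median width, 369.9 to 406.9 peaks of 4 kb or more, 1.727 to 2.046 points of the share at gene starts, 928.2 to 993.5 genes, and 1.646 to 1.699 points of the X share.

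Replicate numbers did not pair the libraries: deviations of same-numbered libraries correlated between -0.02 and 0.002, and not every library correlated best with its own number. With the replicate number as a block, rank calls were 1306 higher and 608 lower, and width calls 673 wider and 219 narrower, 75.4% of them wider. Without read counts, an absent peak cannot be told from one below the caller's limit.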

Other observations

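Gene families outside the immune and signalling groups are given by their counts, beside 11.8% higher and 6.59% lower in rank and 11.7% wider and 10.2% narrower over all genes. Of 76 cytosolic ribosomal protein genes, 8 ranked higher and 5 lower, and of 61 by width 7 were wider and 5 narrower. Mitochondrial ribosomal proteins gave 11 higher and 9 lower of 74, and 3 wider and 4 narrower of 55. Subunits of the respiratory chain and ATP synthase gave 5 higher and 7 lower of 78, and 4 wider and 7 narrower of 59, with a median width difference of -0.142. Proteasome genes gave 4 higher and 4 lower of 38, and 2 wider and 2 narrower of 30. Solute carriers gave 17 higher and 10 lower of 190, and Rab GTPases, which direct vesicle traffic, 8 higher and 3 lower of 49. Histone genes, many of them in shared windows of the histone clusters, gave 8 higher and 9 lower of 61, and 11 wider and 7 narrower of 49. Of the higher genes, those without a kept peak in Ctrl numbered 1 for cytosolic and 2 for mitochondrial ribosomal proteins, and 1 for the respiratory chain. They numbered 1 for the proteasome and 2 each for solute carriers, Rab GTPases and histone genes.

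Clustered protocadherins, cell surface proteins of neurons, gave no single call. All 21 tested had a positive rank difference, with a median of 15.3 points, and 0 passed by limma (0 also at an unadjusted p under 0.05). Their promoters lie close together, so these genes are not independent. Histone deacetylases and acetyltransferases gave 2 higher and 1 lower of 21, and 1 of the 2 had no kept peak in Ctrl. Insulin and IGF signalling genes gave 0 calls of 16 by rank with limma (2 higher at an unadjusted p under 0.05) and 2 wider of 13. Potassium channels gave 2 lower of 18. The 45 genes kept in every Ctrl library and in no FGR library included Vcan, Lhx2, Cdh1, Cdh3, Aldh1a2 and Calca, chosen here after their values were seen.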
